A study of Mus musculus with 2 samples.

Results

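Distal regions with the CTCF consensus are stretches of open chromatin that lie over 1 kb from every annotated start site and hold the 12-base core of the CTCF binding motif beside their summit. The peaks that the authors listed for each of 2 ATAC-seq libraries of mouse G1E cells were merged into 25799 regions, and 13952 of these were distal to every GENCODE M21 start site of any biotype. The CTCF consensus lay within 100 bp of the strongest summit, on either strand, in 727 of the distal regions (5.21%). These 727 regions are described here, set beside the other 13225 distal regions. A further 183 of the 11847 regions within 1 kb of a start site held the consensus in the same way. The rule used the sequence and the position of a region. Signal entered the rule only in the choice of the summit within a region. Signal between regions, presence in both libraries and neighbours were not used.

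CTCF is a zinc finger protein that binds a long, asymmetric DNA motif, so each site has a direction. It blocks the loop extrusion complex cohesin, and chromatin loops form mostly between sites whose motifs point at each other, a layout called convergent. Sites bound by CTCF are held free of nucleosomes, many are bound in most cell types, and in blood cells they flank the globin clusters and other gene domains. No binding data for CTCF were used here, so the consensus says what the sequence is and not whether the protein was there.

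The series has 1 group, the Gata1-deficient erythroid progenitor line G1E (C57BL/6J background, male), with 2 biological replicates of 50000 cells each and no condition to compare. The labels do not state if these were grown as separate cultures. ATAC-seq cuts open DNA with a transposase, and a peak marks where cuts pile up. Replicate 1 had 26083 listed peaks in 21194 regions and replicate 2 had 27810 peaks in 22620 regions. The lists give no read totals. The depth of the libraries is therefore unknown, and absence from a list is no measurement of closed chromatin. Start sites of the erythroid genes Klf1, Tal1, Gata1, Epor, Slc4a1 and Kit had a region within 1 kb in both replicates. The start sites of Ptprc, which encodes the pan-leukocyte surface protein CD45, had none in either. G1E carries a disrupted Gata1 gene, and an open region at its start site does not bear on that.

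The sequences below are those of the members with the highest signal in both replicates. They show how the consensus varies among regions of like strength. Each is 52 bases long, is read 5′ to 3′ on the strand that carries the match, and comes from the NCBI RefSeq copy of GRCm38.p6, the assembly known as mm10. Capitals mark the consensus match and lower case the flanking bases.
Near Cmip, chr8:117224701-117224752, plus strand: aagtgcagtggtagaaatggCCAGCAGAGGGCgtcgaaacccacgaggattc
Pde4d intron, chr13:109776264-109776315, plus strand: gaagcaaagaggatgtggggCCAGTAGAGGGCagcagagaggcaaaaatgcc
Near Dapp1, chr3:137991375-137991426, plus strand: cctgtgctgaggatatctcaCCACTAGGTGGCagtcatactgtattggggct
Near Krt8, chr15:101984493-101984544, minus strand: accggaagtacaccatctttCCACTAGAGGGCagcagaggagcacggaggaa
Near Gna13, chr11:109331503-109331554, plus strand: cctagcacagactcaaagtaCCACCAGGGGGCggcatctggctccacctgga
Near Rab39b, chrX:75674376-75674427, plus strand: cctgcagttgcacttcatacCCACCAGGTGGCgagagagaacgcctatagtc
Mbnl2 intron, chr14:120398454-120398505, minus strand: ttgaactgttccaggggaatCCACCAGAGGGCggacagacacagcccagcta
Tubb1 intron, chr2:174453914-174453965, minus strand: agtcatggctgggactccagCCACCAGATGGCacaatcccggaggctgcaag
No match among these 8 regions had the same 12 bases as another. The match was followed by A or G in all 8.

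The strongest member by mean percentile lay 32.3 kb upstream of Cmip, a gene for an adaptor protein of T cell signalling. It spanned chr8:117224616-117225222 in intergenic sequence and had a signal of 12.5 in replicate 1 and 17.2 in replicate 2. Signal is the authors' enrichment value for a peak. It is not scaled between the libraries, so each value was also ranked among all regions of its own list, and the Cmip region stood at percentiles 83.3 and 95.1. The region in an intron of Pde4d, which encodes a phosphodiesterase that breaks down cyclic AMP, had a signal of 12.4 in replicate 1 and 17.3 in replicate 2, and the second value was the highest of any member in replicate 2. The region upstream of Dapp1, a gene for an adaptor of B cell receptor signalling, had 13.6 in replicate 1 and 15.1 in replicate 2, and no member was higher in replicate 1. It had 10 other regions within 50 kb, against a median of 2 over the members.

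The other strong members were near Krt8 (13.0 in replicate 1 and 14.7 in replicate 2), which encodes an epithelial keratin, and near Gna13 (13.4 and 14), which encodes a G protein alpha subunit. The region nearest to Rab39b, a gene for a small GTPase of vesicle traffic, had a signal of 13.39 in both replicates, lay 96.3 kb upstream of it and was 923 bp wide. It had no other region within 50 kb. The region in an intron of Mbnl2, which encodes a splicing regulator, had 11.7 and 14.9, and the region in an intron of Tubb1 had 12 and 14. Tubb1 encodes the beta tubulin of platelets and their precursors. All 8 were also in the authors' lenient lists of both replicates.

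The Tubb1 region was the only 1 of these 8 with more than 1 GATA match beside the CTCF consensus. Its whole window of 201 bases, 100 on each side of the summit, is given on the plus strand, where the CTCF match reads as its reverse complement. Capitals mark the CTCF match and the GATA matches, TGATAA and AGATAG.
Tubb1 window, chr2:174453776-174453976, plus strand: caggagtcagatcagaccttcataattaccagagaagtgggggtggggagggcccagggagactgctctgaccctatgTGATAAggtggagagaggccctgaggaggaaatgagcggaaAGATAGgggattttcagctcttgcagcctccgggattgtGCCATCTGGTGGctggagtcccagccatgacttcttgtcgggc

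Distal CTCF motif regions were weaker than other distal regions in the thresholded lists of both libraries. Their signal ranged between 2.85 and 13.6 in replicate 1, with a median of 6.27, and between 2.97 and 17.3 in replicate 2, with a median of 6.97. The other distal regions had a median signal of 7.43 in replicate 1 and 8.07 in replicate 2, and reached 47.4 and 46.9. On the percentile scale the members' median was 27.9 in replicate 1 and 29.8 in replicate 2, a mean of 28.9 ± 1.36 (SD, n = 2 libraries). For the other distal regions it was 42.6 and 42.1, a mean of 42.4 ± 0.323. The gap of the means is larger than the spread between the libraries. No test was made, since 2 libraries of 1 group cannot give a two-sided exact p below 0.5, and regions are not replicates.

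Few members were among the strong regions. The upper 50% of the regions of a list held 20.3% of the members in replicate 1 and 21.2% in replicate 2, against 41.8% and 41.5% of the other distal regions. The strongest 10% of a list held 0 of 409 members in replicate 1 and 2 of 552 in replicate 2, the regions near Cmip and in Pde4d. Of the other distal regions, the strongest 10% held 519 of 10264 (5.06%) in replicate 1 and 531 of 10954 (4.85%) in replicate 2. The members' share in replicate 2 was 0.362%. Members were also narrower, with a median width of 271 bp against 407 bp. This is the width after merging over both replicates, which can be larger where both listed a region. The part of this in the gap of widths was not tested. At the low end of signal, members and other distal regions showed no such gap in strength. Below about the 10th percentile the cumulative curves of the members and of the other distal regions ran together.

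The lower strength depended on which of the authors' lists was used. In their lenient lists of each replicate, 1752 of 33741 distal regions met the same rule, or 5.19%. Their median percentile, averaged over the replicates, was 41.7, against 39.2 for the other distal regions of those lists. So the order was reversed there. Among the stronger 50% of the thresholded regions the members were again lower, at a mean of 63.7 against 70.6.

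**Figure D1:**
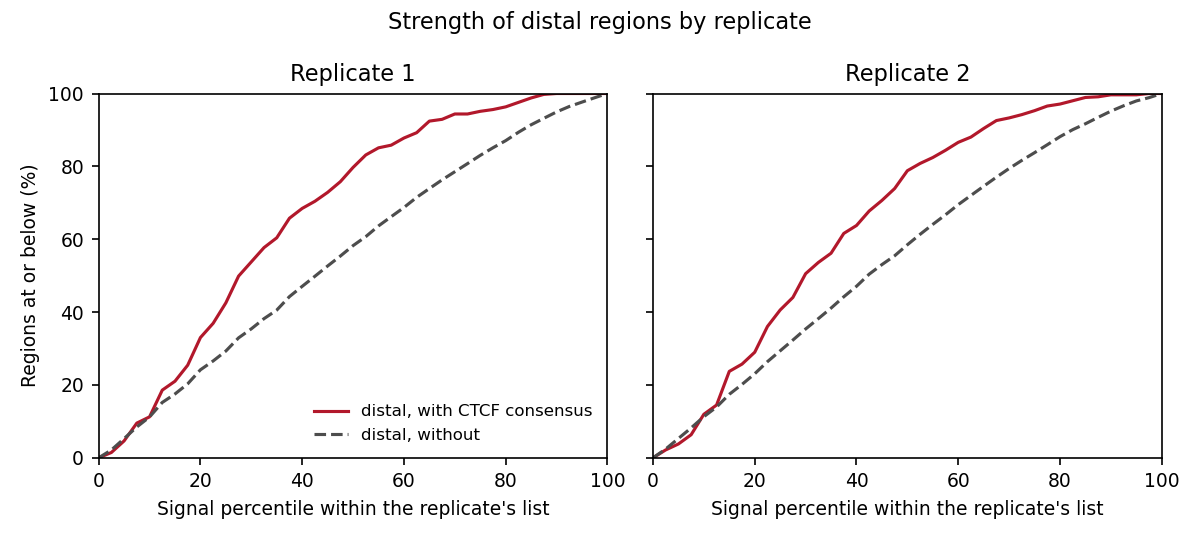
Cumulative share of distal regions (y axis, percent) at or below each percentile of signal within a replicate's own list (x axis), for the 727 members (solid red) and the 13225 other distal regions (dashed grey) in each replicate. The curve of the members lies above that of the other distal regions from about the 10th percentile on, with medians of 27.9 and 29.8 for members and 42.6 and 42.1 for the others.

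Fewer members than other distal regions were listed in both replicates. Of the 727 members, 409 were listed in replicate 1 and 552 in replicate 2. Both replicates held 234 of them, replicate 1 alone 175 and replicate 2 alone 318. The share in both was 32.2% (Wilson 95% interval 28.9 to 35.7%), against 60.4% of the other distal regions (59.6 to 61.3%) and 59% of all distal regions. These intervals cover counting error only and treat regions as independent. Of the members of replicate 1, 57.2% were also in replicate 2, against 77.9% of the other distal regions and 77.1% of all distal regions. Of the members of replicate 2, 42.4% were also in replicate 1, against 73.0% of the others and 71.5% of all. The mean of the shares was 49.8% ± 10.5 (SD, n = 2 libraries) for members and 75.4% ± 3.47 for the other distal regions.

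A lower share in both replicates was also seen at the start sites. Of the 183 regions within 1 kb of a start site that held the consensus, 57.4% were in both replicates, against 78.0% of those without it and 77.6% of all. In the authors' conservative and lenient lists the members' share moved and stayed below the others. The conservative list is 1 list over both replicates, so presence in it is another measure than being listed in each replicate. The authors' conservative list over both replicates held 299 members (41.1%), against 64.7% of the other distal regions and 63.5% of all. Their lenient lists held 465 members in both replicates (64.0%), against 82.4% of the others and 81.5% of all. When the lenient lists themselves supplied the regions, 37.2% of the members were in both replicates, against 40.04% of the other distal regions.

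Many members listed in 1 replicate were present in the other at the lenient threshold. Of the 175 members in replicate 1 alone, the lenient list of replicate 2 held 93 (53.1%), against 61.7% of the other distal regions of that kind. Of the 318 in replicate 2 alone, the lenient list of replicate 1 held 138 (43.4%), against 51.5%. The strongest member in replicate 1 alone lay in an intron of Alpk1, a gene for a kinase of innate immunity, with a signal of 9.70 at percentile 64.5. The strongest in replicate 2 alone lay in an intron of Pnpla8, which encodes a phospholipase, with a signal of 13.2 at percentile 80.9. The next were in an intron of Lmo1, a relative of Lmo2, with 9.15 in replicate 1, and 23.6 kb upstream of Fshb, which encodes a subunit of follicle stimulating hormone, with 12.9 in replicate 2. All 4 were in the lenient lists of both replicates. Their sequences are given below. The rule requires a full match in every member, also in those listed in only 1 replicate.
Alpk1 intron, replicate 1 alone, chr3:127763290-127763341, minus strand: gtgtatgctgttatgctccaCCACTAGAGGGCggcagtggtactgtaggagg
Lmo1 intron, replicate 1 alone, chr7:109139578-109139629, plus strand: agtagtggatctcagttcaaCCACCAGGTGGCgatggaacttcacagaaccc
Pnpla8 intron, replicate 2 alone, chr12:44292456-44292507, plus strand: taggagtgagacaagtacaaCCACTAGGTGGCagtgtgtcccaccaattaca
Near Fshb, replicate 2 alone, chr2:107083224-107083275, plus strand: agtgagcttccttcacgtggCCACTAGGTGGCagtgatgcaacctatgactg
The regions in Pnpla8 and near Fshb carried the same 12 bases as the strong region near Dapp1.

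Strength went with replication, and members were in both replicates less often than other distal regions of like strength. This was so in each of the 5 steps of replicate 2, and between percentiles 20 and 60 of replicate 1. In the other 3 steps of replicate 1 the share of the other distal regions lay within the Wilson interval of the members' share. Among regions of replicate 1 in the lowest 20 percentiles of that list, 53 of 135 members (39.3%) were also in replicate 2, against 44.1% of the other distal regions. Between percentiles 20 and 40 it was 49.7% against 73.8%, and between 40 and 60 it was 75.9% against 89.7%. Between percentiles 60 and 80, 34 of 35 members were in both replicates, and above 80 it was 15 of 15, against 97.9% and 99.9% of the other distal regions. Among regions of replicate 2, the members' share was 21.9% in the lowest step, 40.1% between percentiles 20 and 40, 50% between 40 and 60 and 75.9% between 60 and 80. Above 80 it was 93.8%, on only 15 of 16 members. The other distal regions had 42.8%, 62.4%, 82.4%, 95.5% and 99.7% in the same steps. With the other distal regions weighted to the members' spread over these steps, their share was 70.1% in replicate 1 and 65.9% in replicate 2, against 57.2% and 42.4% for members. This comparison within steps of strength was chosen after the data were seen.

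**Figure D2:**
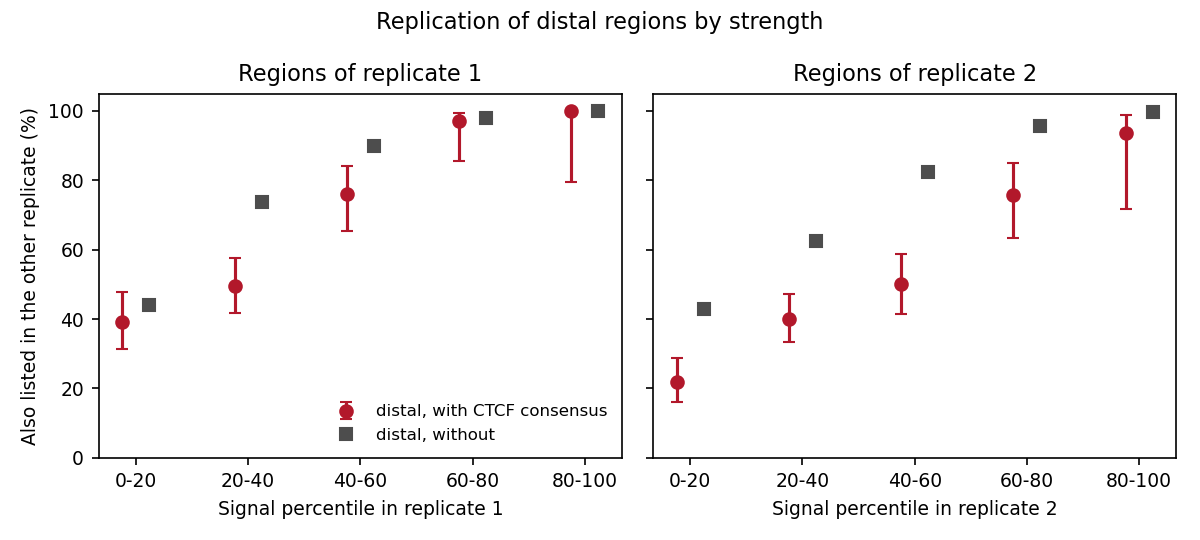
Share of distal regions of a replicate that the other replicate also listed (y axis, percent), in 5 steps of the percentile of signal (x axis), for members (red circles, bars are Wilson 95% intervals for counting error) and for other distal regions (grey squares). The bars of the members lie below the squares between percentiles 20 and 60 of replicate 1 and in each step of replicate 2, and include them in the lowest and the upper steps of replicate 1.

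Where both replicates listed a member, they placed it alike but ranked it less alike than other distal regions. The summits of the replicates lay a median of 17 bp apart in the 234 members and 21 bp apart in 7993 other distal regions. They lay within 20 bp in 60.3% of the members, against 49.7% of the others. The Spearman correlation of the percentiles between replicates was 0.511 over the 234 members and 0.783 over the others. This is a description across regions of the same libraries, and members cover a narrower range of signal. The members in both replicates had a median percentile of 37.3 in replicate 1 and 41.6 in replicate 2, against 51.9 and 52.9 for other distal regions in both. The weakest members in both lay near Phyhd1 (3.93 and 4.61) and near Zfp703, which encodes a zinc finger corepressor (4.31 and 3.76).

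The consensus was concentrated at the summits of open regions. Over all 13952 distal regions, the density of matches was 672 per Mb within 20 bp of the summit, 444 per Mb between 20 and 40 bp, 147 per Mb between 40 and 60 bp and 52.0 per Mb between 60 and 80 bp. Between 100 and 150 bp it was 10.03 per Mb, and between 500 and 1000 bp 8.82 per Mb. In the members the centre of the match lay a median of 19.5 bp from the summit, and 374 of 727 (51.4%) had it within 20 bp. The summit lay 3′ of the match centre in 387 members and 5′ of it in 340, or 53.2% on the 3′ side (Wilson 95% interval 49.6 to 56.8%). By distance of the match, the share was 49.7% within 20 bp (374 members), 52.9% between 20 and 40 bp (244), 66.2% between 40 and 60 bp (77; 55.1 to 75.8%) and 65.6% beyond that (32; 48.3 to 79.6%). In the member with the farthest match, its centre lay 90.5 bp from the summit (signal 5.13 in replicate 1 alone), and the nearest match that failed the rule lay 96.5 bp away, at chr13:75797762-75798198 (17.7 in replicate 1 and 16.95 in replicate 2), where part of the 12 bases fell beyond 100 bp. With each replicate's own summit the 3′ share over the members was 56.2% in replicate 1 and 53.3% in replicate 2.

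**Figure D3:**
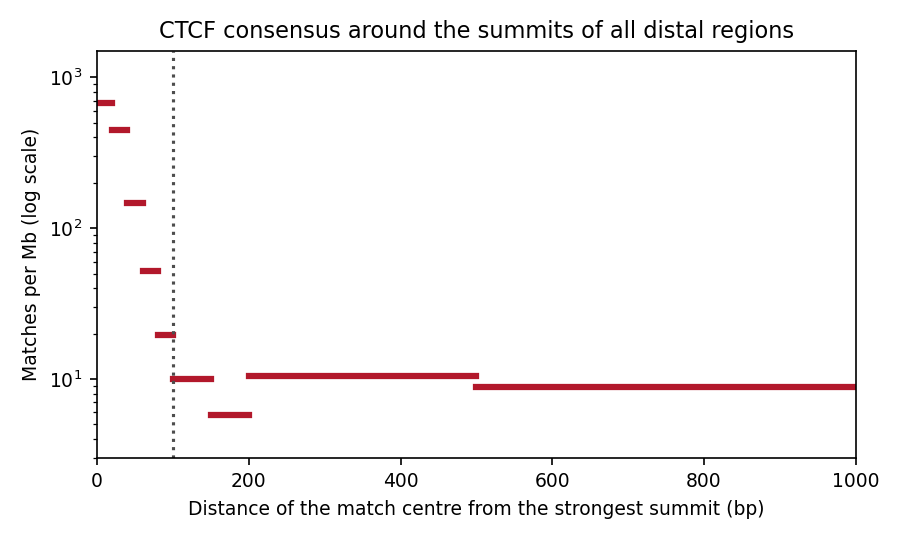
Density of CTCF consensus matches (y axis, matches per Mb, log scale) by distance of the match centre from the strongest summit (x axis, bp), over all 13952 distal regions. Each bar spans its distance bin and the dotted line marks 100 bp, the limit of the rule, where the density is near that of the flanking sequence.

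Most matches in the genome were in no listed region. GRCm38 held 13119 matches on the assembled chromosomes, and regions of either replicate held 1049 of them (8%). Of the 11689 matches over 1 kb from a start site, 4% were in a region of replicate 1 and 5.32% in a region of replicate 2, and 816 (6.98%) were in either. With the lenient lists added it was 1894 (16.2%). Within 1 kb of a start site, 16.3% of 1430 matches were in a listed region. Matches that the genome file marks as repeats were listed less often, with 3.15% of 2031 distal matches against 7.79% of the unmarked ones. In the members, 8.12% of the matches were marked as repeats, against 19.2% of the 9795 matches in no list.

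The bases of the match went with how often it was listed. The consensus leaves a choice of bases at positions 4, 5, 8 and 9, counted from 1 at its 5′ end. Distal matches with C at position 4 were listed in 9.67% of cases and those with G in 4.85%. At position 8 it was 8.96% with G and 5.57% with A. Position 5 made little difference, with 6.88% for C and 7.12% for T. Position 9 had 7.63% for T and 6.49% for G. Of the 16 possible matches, CCACTAGGTGGC, at 85 of 632 (13.4%), and CCACCAGGGGGC, at 91 of 684 (13.3%), were listed most often in either replicate, with no order between them. In replicate 1 alone CCACTAGGGGGC, at 7.84%, was above both, which had 6.65% and 7.75%. CCAGTAGAGGGC was listed least often, at 23 of 934 (2.46%), and 464 of those 934 were marked as repeats. The members most often carried CCACCAGGGGGC (83), CCACTAGGTGGC (80) and CCAGCAGAGGGC (79). Repeat content differs between these sequences, and its part in the shares was not tested.

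Bases outside the 12 positions also differed between members and unlisted distal matches. The base after the match, position 13, was A in 61.6% and G in 31.4% of the members, against 51.6% and 19.3% of the 9795 matches in no list. C and T there made up 3.03% and 3.99% in the members, against 12.1% and 17.1%. Position 14 was G in 45.5% of the members, against 27.5%, and T in 6.33%, against 22.6%. On the 5′ side, the third base before the match was T in 48.8%, against 35.1%. Seen over the genome, a distal match followed by G was in a listed region in 10.2% of cases and one followed by A in 8.04%, but one followed by C in 2.09% and one followed by T in 2.11%.

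Within the members, no choice of base at a single position set strength apart. Members with C at position 4 had a median percentile of 29.7 in replicate 1 and 30.2 in replicate 2, against 26.0 and 28.5 for those with G, and 33.3% against 30.4% were in both replicates. At positions 5, 8 and 9 the medians lay between 27.2 and 30.4. The 16 full sequences varied more, on small numbers. CCAGTAGGTGGC had 13 of 23 members in both replicates, with median percentiles of 42.5 and 34.7, and CCACCAGATGGC had 11 of 23, with 39.7 and 47.9. CCAGCAGGGGGC had 8 of 49, with 23.9 and 27.3. These sequences were picked after their values were seen. A second match was rare. Of the 727 members, 714 had 1 match in the window and 13 had more, and 5 of the 13 were in both replicates.

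Members lay more often outside genes than other distal regions. The summit was intergenic in 354 members (48.7%), in an intron in 335 (46.1%) and in an exon in 38 (5.23%). For the other distal regions the shares were 39.9%, 55.1% and 5%, and 40.4% of all distal regions were intergenic. The intergenic share was 50.4% of the members in replicate 1 and 48.7% in replicate 2, a mean of 49.5% ± 1.16 (SD, n = 2 libraries), against 39.9% ± 0.107 for the other distal regions. Intergenic members were in both replicates in 34.2% of cases, intronic ones in 29.6% and exonic ones in 36.8%, with counts of 121, 99 and 14. The shares of the other distal regions were 60.1%, 61.0% and 57.2%.

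The distance to the nearest start site was close to that of other distal regions. Its median was 9.72 kb for members and 9.36 kb for the others. Only 7 members (0.963%) lay over 100 kb from any start site, against 2.24% of the other distal regions. The members nearest to a start site lay in an intron of Mllt1, a gene for a subunit of transcription elongation complexes, where the region's edge was 1034 bp away (signal 10.9 in replicate 2 alone), and beside the noncoding gene Gm37851 at 1036 bp (5.13 in replicate 1 alone). Of the regions that just missed the distance, the closest had its edge 957 bp away (5.18 in replicate 2 alone). The farthest member was 304 kb from a start site on chromosome 18 (5.76 in replicate 2 alone). The next lay in an intron of Hmcn1, a large extracellular matrix gene, 168 kb from its start site, with a signal of 5.49 in replicate 1 and 7.48 in replicate 2.

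Chromosomes differed in how many members they held. Chromosome 12 had the most per length, with 57 members or 0.474 per Mb, and chromosome 1 had the largest number, 79 or 0.404 per Mb. Chromosome X had 13 or 0.0760 per Mb, and chromosome Y had none. Distal regions of any kind were also few on chromosome X, at 338 in 171 Mb, against 1209 in 195 Mb on chromosome 1. Members made up 3.85% of the distal regions of chromosome X. As a share of a chromosome's distal regions, members made up between 2.51% on chromosome 11 and 7.55% on chromosome 7, chromosome Y with its 4 distal regions aside. Chromosome 19 had 12 members and none of them was in both replicates. Over all chromosomes, 32.2% of the members and 59% of all distal regions were. Chromosome 19 was picked after the values of all chromosomes were seen, and its other distal regions are not set beside this count.

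The motifs pointed either way in equal measure. The match nearest the summit was on the plus strand in 351 members and on the minus strand in 376, or 48.3% plus (Wilson 95% interval 44.7 to 51.9%). It pointed toward the nearest protein-coding start site in 336 members (46.2%; 42.6 to 49.9%). That share was 50.4% in replicate 1 and 44.4% in replicate 2, so the departure from an even split was not seen in replicate 1. The match was on the strand of that gene in 369 members (50.8%), and 320 members (44.0%) lay upstream of it. The 727 members had 679 different nearest protein-coding genes.

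Neighbouring members along a chromosome formed 707 pairs, of which 175 (24.8%) were convergent, 176 (24.9%) divergent and 356 (50.4%) in tandem. Convergent and divergent pairs alternate along a chromosome by construction, so their numbers carry no information and only their spacing was compared. The median distance was 1868 kb for convergent, 1738 kb for divergent and 1923 kb for tandem pairs. The matches lay within 1 Mb of each other in 36.0% of convergent, 43.8% of divergent and 37.1% of tandem pairs. Within 100 kb there were 17 convergent, 21 divergent and 44 tandem pairs, and within 10 kb there were 2, 6 and 9. Per replicate, pairs within 1 Mb made up 25% of convergent and 31.0% of divergent pairs in replicate 1, and 34.1% and 36.3% in replicate 2. Among members in both replicates, 21.3% of 47 convergent and 17.8% of 45 divergent pairs were within 1 Mb, so the order was turned round there.

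**Figure D4:**
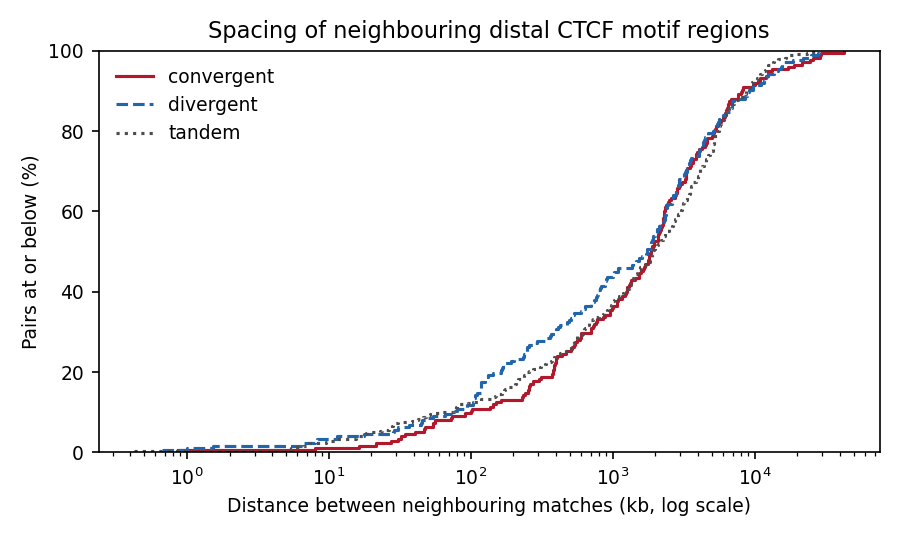
Cumulative share of pairs of neighbouring members (y axis, percent) by the distance between their matches (x axis, kb, log scale), for convergent (solid red, 175), divergent (dashed blue, 176) and tandem pairs (dotted grey, 356). The curves cross the 50% line at 1868, 1738 and 1923 kb, and the divergent curve lies above the other curves between about 100 kb and 1 Mb.

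The closest convergent pair lay in an intron of Dock9, which encodes an exchange factor for the GTPase CDC42. The matches were 0.874 kb apart, and the regions had a signal of 5.86 and 6.42 in replicate 1 and were not listed in replicate 2. Both were in the lenient lists of both replicates. Their sequences show the pair as its strands carry it.
Dock9, left region, chr14:121588646-121588697, plus strand: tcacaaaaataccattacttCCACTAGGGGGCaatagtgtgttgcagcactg
Dock9, right region, chr14:121589520-121589571, minus strand: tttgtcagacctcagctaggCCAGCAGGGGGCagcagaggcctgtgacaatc
The closest divergent pair lay 42.3 kb from the start of Wee1, a kinase that holds back entry into mitosis, with matches 0.673 kb apart. Its left region had a signal of 6.88 in replicate 1 and 6.72 in replicate 2, and its right region 11.9 in replicate 2 alone. The closest tandem pair, 0.426 kb apart, lay in an intron of Ccdc88c, a regulator of Wnt signalling. Its left region had 7.25 in replicate 1 and 7.79 in replicate 2, and its right region 5.81 in replicate 2 alone.

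Members stood more alone than other distal regions. Other regions of any kind within 50 kb numbered a median of 2 for members and 3 for other distal regions, and up to 17 and 18. Over the members of replicate 1 the median was 3, as for the other distal regions, and over those of replicate 2 it was 2 against 3. No other region lay within 50 kb of 122 members (16.8%), against 11.2% of the others. Per library that share was 14.7% and 16.7% for members, a mean of 15.7% ± 1.41 (SD, n = 2 libraries), against 10.5% ± 0.00988. The nearest other region was a median of 15.1 kb away for members and 8.64 kb for the others. At least 1 other distal region was within 50 kb of 477 members (65.6%), against 78.6%. A region at a start site was as frequent beside both, at 447 members (61.5%) and 62.0% of the others. The share of members in both replicates was 24.6% with no neighbour, 27.6% with 1 or 2 and 38.2% with 3 or more. The same split of the other distal regions is not set beside it, so this rise is not shown to be particular to members.

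Another member lay within 50 kb of 109 members (15.0%). Of 21911 protein-coding genes, 1289 had a member within 50 kb of a start site and 111 had at least 2. The largest number was 3, at 20 genes, and some of these genes share the same members. Around Cables2, which encodes a protein that binds cyclin dependent kinases, 2 of the 3 were in both replicates, with a signal of 5.99 and 8.64 and of 5.57 and 5.96. Acot7, an acyl-CoA thioesterase gene, had 1 in both (7.43 and 6.73). Ahnak2 and Cdca4 shared 3 members, and Cdx2, a homeobox gene of the intestine, had 3, and none of these was in both replicates.

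Members were found at 3 of 21 blood gene loci. Within 100 kb of a start site, 14.3% of these genes had a member, against 10.2% of all 21911 protein-coding genes, and the list counts the beta-globin cluster by both Hbb-y and Hbb-bt. Lmo2, a bridging protein of the TAL1 complex, had a member 11.2 kb downstream of its start site (chr2:103982310-103982520, 5.13 in replicate 1 alone). Zfpm1, which encodes the GATA1 cofactor FOG1, had one 8.81 kb upstream (chr8:122273004-122273476, 7.63 in replicate 1 and 5.44 in replicate 2). Nfe2, a subunit of the erythroid factor NF-E2, had one 48.9 kb upstream (chr15:103307193-103307449, 7.10 in replicate 2 alone). The Nfe2 member lay closer to Gpr84, at 3.29 kb, and the Zfpm1 member closer to a start site of Zfp469, at 3.77 kb. The sequences of all 3 are given since these are the members within 100 kb of the listed blood genes.
Near Lmo2, chr2:103982398-103982449, minus strand: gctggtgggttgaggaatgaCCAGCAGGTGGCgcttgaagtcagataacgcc
Near Zfpm1, chr8:122273306-122273357, plus strand: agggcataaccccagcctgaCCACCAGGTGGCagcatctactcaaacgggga
Near Nfe2, chr15:103307310-103307361, minus strand: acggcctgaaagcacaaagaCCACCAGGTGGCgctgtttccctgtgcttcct
None of the 3 was above percentile 50 in either replicate. The other 18 loci, among them both globin clusters, Gata1, Gata2, Tal1, Runx1 and Myb, had none. Neither had the 8 loci known for CTCF sites in other cells, H19, Igf2, Hoxa9, Hoxd9, Firre, Xist, Peg3 and Kcnq1ot1. Within 100 kb of 6 of these 8 the genome held no match to the consensus at all, so the rule could not have found a member there. The same was so for Hba-a1 of the alpha-globin cluster, Myb, Kit and Spi1 among the blood loci.

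Some strong regions at blood loci held the consensus away from their summit and so are no members. Beyond the beta-globin cluster, 20.9 kb downstream of the start of the adult gene Hbb-bt, the region chr7:103792973-103793435 had a signal of 19.6 in replicate 1 and 16.7 in replicate 2, at percentiles 99.5 and 93.9, and its match lay 150.5 bp from the summit. Upstream of Alas2, the erythroid enzyme of the first step of heme synthesis, the region chrX:150477817-150478752 had 16.3 and 17.3. It held 2 matches of opposite strands, 284.5 and 267.5 bp from the summit. These lay 68.8 and 69.4 kb upstream of the Alas2 start site, and the region's edge was 14091 bp from the nearest start site of any gene. Over the genome, 58 distal regions held a match without meeting the rule. Of these, 47 (81.0%) were in both replicates, against 60.3% of the distal regions with no match. The median width of the 58 was 594.5 bp, against 271 bp for the members and 406 bp for regions with no match. A wider region can hold a match by its length alone. The median percentile of the 58 was 42.2 in replicate 1 and 52.9 in replicate 2. For regions with no match it was 42.6 and 42.1.

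Motifs of blood transcription factors were rarer beside the CTCF consensus than in other distal regions. The motifs were searched on both strands in the same window, and a match is a description of the sequence and not a bound site. A GATA match (AGATA or TGATA, followed by A or G) was in 177 members (24.3%), against 63.6% of the other distal regions. Per library it was 21.5% and 26.4% of the members, a mean of 24.0% ± 3.49 (SD, n = 2 libraries), against 66.2% ± 1.56. AP-1 (TGACTCA or TGAGTCA) was in 3.85% against 12.05%, RUNX (TGTGGT or TGCGGT) in 17.1% against 26.2%, and ETS (AGGAAG or CGGAAG) in 28.6% against 41.0%. KLF (CCNCNCC, with A or C as the third base and A or G as the fifth) was in 15.0% against 21.8%. The E-box CAGCTG was in 14.03% against 16.7%, and CCAAT, the motif of NF-Y, in 20.4% against 22.5%. At least 1 of GATA, AP-1, RUNX and ETS was in 427 members (58.7%), against 87.4%. The median GC content of the window was 50.7% for members and 48.8% for the others. The CTCF match takes up 12 of the window's bases, and the part of base composition in these shares was not tested.

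**Figure D5:**
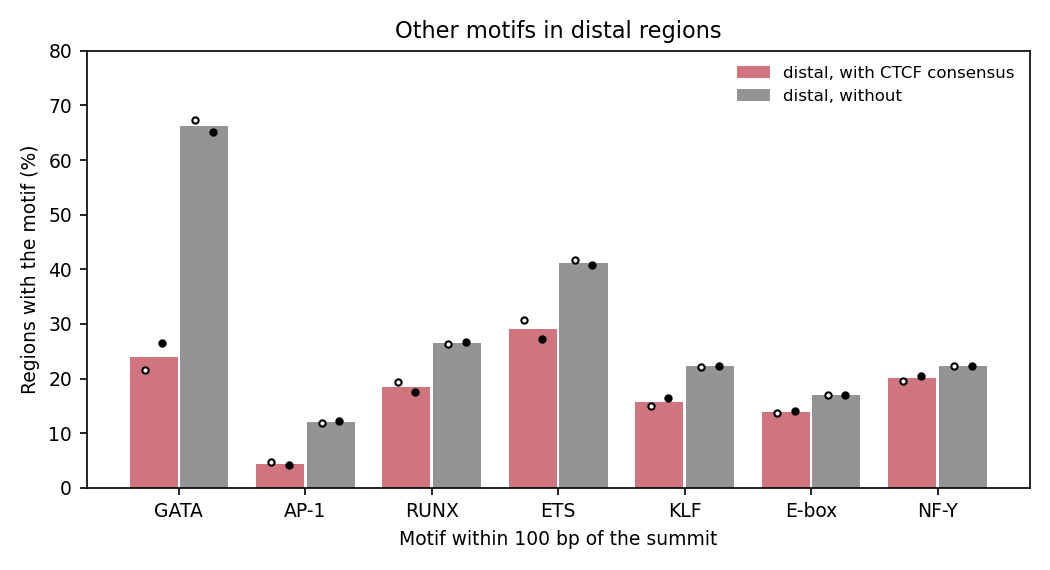
Share of distal regions with each motif within 100 bp of the summit (y axis, percent), for members (red, left bar) and other distal regions (grey, right bar). Bars are the mean of the replicates, open circles are replicate 1 and filled circles replicate 2. The gap is widest for GATA, at 24.0% against 66.2%.

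A GATA match beside the consensus did not go with strength or replication among the members. Of members with a GATA match 32.2% were in both replicates, and of those without one also 32.2%. Their median percentile was 31.0 in replicate 1 and 26.3 in replicate 2, against 27.2 and 31.2 for members without GATA. Among the other distal regions, 66.9% of those with a GATA match were in both replicates, against 49.1% of those without. For members without GATA the share was 32.2%, and for other distal regions without GATA 49.1%. These sets also differed in strength, since the other distal regions without GATA had median percentiles of 35.1 in replicate 1 and 36.2 in replicate 2. The part of strength or of GATA in these shares was not tested. Of the other motifs only RUNX and AP-1 are given, and the same split by ETS, KLF, E-box and NF-Y is not. The share in both replicates was 41.9% for the 124 members with a RUNX match, against 30.2% for members without. For the other distal regions it was 62.3% with RUNX and 59.8% without. With an AP-1 match, 14 of 28 members were in both (Wilson 95% interval 32.6 to 67.4%), against 31.5% of those without, and among the other distal regions it was 61.3% with AP-1 and 60.3% without.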

How the data were processed

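Per the labels, ATAC-seq libraries of 2 biological replicates of G1E were analysed on mm10. The authors deposited peak lists. Which aligner and peak caller made them is not given in the sources used here. The signal of a peak (column 7) is the deposited enrichment value, never scaled between libraries, and was used to describe and rank regions within a list. Each deposited summit offset counts bases from the peak's start. The main lists were those with a threshold on the irreproducible discovery rate, set by the authors within each replicate. Their lenient pseudoreplicated lists and their conservative list over both replicates served for comparison, and 8 further lists were not used.

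Peaks that overlapped or touched were merged over both replicates, and the region's summit was that of its highest signal. Regions were placed against GENCODE M21, with the GRCm38.p6 sequence of NCBI RefSeq. The whole 12-base match had to lie within 100 bp of the summit. Tied percentiles counted 0.5 each. Wilson 95% intervals cover counting error. No test was made, since both libraries form 1 group. The members, the motifs and the gene lists were chosen with earlier results of these data known. Named members followed a rule: the 8 strongest and the 2 weakest in both replicates, the 2 strongest in each replicate alone, the nearest to and farthest from a start site, the closest pairs of each layout, members within 100 kb of 29 loci, and the first 5 genes in alphabetical order among those with the most members. Regions near the rule's limits and those with a match away from the summit were named after their values were seen. Alternatives were other windows, distances and lists, the stronger 50% of regions, a stricter overlap, other choices of summit and leaving out each replicate. The steps were tested on simulated peaks and run with Python 3.11.15, pandas 2.3.3, NumPy 2.4.6, SciPy 1.17.1 and matplotlib 3.10.9.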

Additional observations from a re-analysis of the deposited data

How the results depend on the processing

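Of 55 alternative values, 39 stayed within 1.5 times the value reported for a number of members, within the Wilson interval for the share in both replicates and the convergent share, or within the SD between the libraries for the rest. Convergent and divergent pairs alternate by construction, so a convergent share that stayed does not bear on which layout the members have. Windows of 50 and 200 bp around the summit gave 652 and 750 members, and a reciprocal overlap of 50% gave 30.3% in both replicates. Over 2000 bp from a start site, 51.7% were intergenic and the median distance was 11.2 kb. The lenient lists gave 1752 members, 37.2% in both replicates, a percentile of 41.7 and 50% on the plus strand. The stronger 50% of regions left 117 members, with 59.8% in both, against 91.8% of other distal regions, a percentile of 63.7, 52.1% intergenic, 46.2% plus and a distance of 7.70 kb. Within 100 kb the median number of other regions was 5. Leaving out each replicate gave 416 to 554 members, 48.7 to 50.2% intergenic, a distance of 9.17 to 9.57 kb, a percentile of 28.0 to 29.1, 46.9 to 49.8% plus and 23.0 to 25.5% convergent pairs; the share in both replicates could not be computed. The members' median percentile was below that of other distal regions with the other windows and distances, in the stronger 50% and without either replicate, and above it in the lenient lists (39.2 for the others). The cause of these moves was not tested. Unknown depth limits any statement on regions missing from a list, and 2 libraries allow no test.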
